A study of Mus musculus with 8 samples.

Results

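The cytosolic ribosomal protein genes were taken from the 26848 genes of the table by symbol. A symbol was included when it began with Rpl or Rps and went on with a number, with or without a final a, x or l, or when it was Rplp0, Rplp1, Rplp2 or Rpsa, and symbols marked -ps were left out. This gave 86 genes, 35 of the small subunit and 51 of the large subunit. Of these, 77 were canonical genes, 4 were paralogs (Rpl3l, Rpl7l1, Rpl22l1 and Rps27l), and 5 (Rps3a2, Rps3a3, Rps4l, Rpl6l and Rpl32l) are annotated as pseudogenes. The table itself assigned 80 of the 86 to the KEGG ribosome pathway, and 81 carried a GO term for the ribosome.

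RAW264.7 cells, which are a mouse line with macrophage traits, were grown and sequenced on nano/microstructured polyetheretherketone (PEEK), a polymer of bone implants, or on smooth PEEK, with 4 libraries per surface and 8 in all. The labels name no genetic change or added agent in either group, and they give no time in culture. The libraries are called structured 1 to 4 and smooth 1 to 4, and the labels number biological replicates without stating separate cultures, so a p-value rests on the spread of these libraries, and that spread may be technical. Messenger RNA was captured on oligo(dT), and totals were 64660379 to 69885018 count units in structured libraries and 64479829 to 73098735 in smooth libraries. Of 10 macrophage markers, 9 were above 1 CPM (the count scaled to the library's total after TMM scaling in edgeR) in every library, and their summed level was 6465 to 6613 CPM in structured libraries and 6121 to 6551 in smooth libraries.

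The cytosolic ribosome pairs a small subunit, which reads the messenger RNA, with a large subunit, which joins amino acids. Each subunit is built on ribosomal RNA from many proteins, mostly in single copy, so cells make these proteins in matched amounts. In mammals their mRNAs begin with a C and a run of pyrimidines, the terminal oligopyrimidine (TOP) start, through which mTORC1 and the RNA-binding protein LARP1 set their translation. The mouse genome also carries many retrotransposed copies of these genes, and a short read from a copy and from its parent gene can be the same.

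Transcript levels were compared between genes as FPKM, in which the authors scaled fragments by gene length and library depth. The mean FPKM over the 8 libraries had a median of 240.4 over the 86 genes, of 215.8 for the small subunit and of 259.5 for the large subunit. The highest level was that of Rpl4, a core protein of the large subunit, at 1536 ± 16.8 FPKM in structured libraries and 1442 ± 49.7 in smooth libraries (SD, n = 4 each). Next came Rplp1, an acidic protein of the lateral stalk, with 1518 ± 83.8 FPKM in structured libraries and 1339 ± 139 in smooth libraries. Rps3a1, a small subunit protein at the messenger RNA exit side, had 1442 ± 65.1 FPKM in structured libraries and 1394 ± 105 in smooth libraries. At the low end, Rpl21 had 1.38 ± 0.27 FPKM in structured libraries and 1.36 ± 0.22 in smooth libraries, and its near-identical copies held 99.2% of the counts of gene and copies together. The FPKM of a single entry is therefore not the level of the protein's mRNA for such genes, as described further on.

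Starts of 6 genes are shown because they include 3 small subunit genes with low adjusted p (Rps16, Rps18 and Rps23), large subunit genes with negative fold changes (Rpl28 and Rplp2) and the gene of the highest level (Rpl4). The sequences are from RefSeq (GRCm38.p6), 5′ to 3′ on the gene's strand, from 40 bases before the annotated start to 30 bases after it, and capitals mark CTTTC or CTTTT, the form of the TOP motif searched. They lie at chr17:33955636-33955705 (minus strand, Rps18), chr7:28350649-28350718 (plus, Rps16), chr13:90923082-90923151 (plus, Rps23), chr7:4792925-4792994 (plus, Rpl28), chr7:141447611-141447680 (plus, Rplp2) and chr9:64173347-64173416 (plus, Rpl4).
Rps18: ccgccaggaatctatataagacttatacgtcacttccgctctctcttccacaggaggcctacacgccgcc
Rps16: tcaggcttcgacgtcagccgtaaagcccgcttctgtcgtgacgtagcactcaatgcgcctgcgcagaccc
Rps23: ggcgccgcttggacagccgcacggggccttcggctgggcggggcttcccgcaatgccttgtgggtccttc
Rpl28: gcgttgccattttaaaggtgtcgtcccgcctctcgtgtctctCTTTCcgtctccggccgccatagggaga
Rplp2: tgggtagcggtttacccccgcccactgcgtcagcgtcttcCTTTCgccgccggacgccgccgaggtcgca
Rpl4: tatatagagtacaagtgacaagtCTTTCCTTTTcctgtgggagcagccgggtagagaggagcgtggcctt
In Rplp2 the motif begins at base 1 of the transcript, in Rpl28 at base 3, and in Rpl4 at base -17, before the annotated start. Rps18 is left unmarked, yet its annotated start is a C followed by a run of pyrimidines, so the letter search misses such starts. Of starts not shown, Rps6 held the motif at base 3 and Rplp0 did not hold it in this window. Over all members that are not annotated as pseudogenes, 61 had 73 RefSeq promoters, and 44 of these (60.3%) held CTTTC or CTTTT on the gene's strand within 50 bases of the start, against 21.8% of 32851 promoters of all genes. CCGGAAG, the core bound by GABP and other ETS factors, was searched on both strands from 250 bases before to 50 bases after the start and was found in 26 of the 73 (35.6%), against 8.86% of all promoters. A C stood at the annotated start in 22 of the 73 (30.1%), against 16.3% of all promoters. The letter matches are descriptions of these windows and not sites shown to be used.

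The comparison of structured with smooth PEEK asked whether the ribosomal protein mRNAs differed with the surface. None of the 85 genes tested passed edgeR's quasi-likelihood test with Benjamini-Hochberg adjustment at 0.05, where 3.75% of all tested genes did (1.01% higher, 161 genes, and 2.75% lower, 440 genes), and the smallest adjusted p was 0.0520. The 86th gene, Rps4l, had too few counts to be tested. The fold changes were small and mostly positive: 79 of 85 were above 0, against 51.2% of all tested genes. Their median was 0.09 on the log2 scale, with 0.06 and 0.13 as the quartiles, beside a median of 0.0056 over all tested genes. At an unadjusted edgeR p under 0.05 there were 27 members, all with a positive fold change, where 18.7% of all tested genes were at that p and 8.14% with a positive one. Members are abundant, and of the 7062 tested genes at 5 FPKM or more on average, 29.1% were at that p, 13.8% at that p with a positive fold change, and 56.0% were above 0. Every structured library was above every smooth library for 13 members (15.3%), against 5.19% of all tested genes and 8.62% of those at 5 FPKM or more, and every structured library was below for 0 members, against 7.03%. DESeq2 called 18 members higher and 0 lower, where it called 3.45% of all tested genes higher, and limma voom called 1 member, Rps16. Fewer cells making a transcript and less of it per cell cannot be told apart in such bulk libraries.

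**Figure D1:**
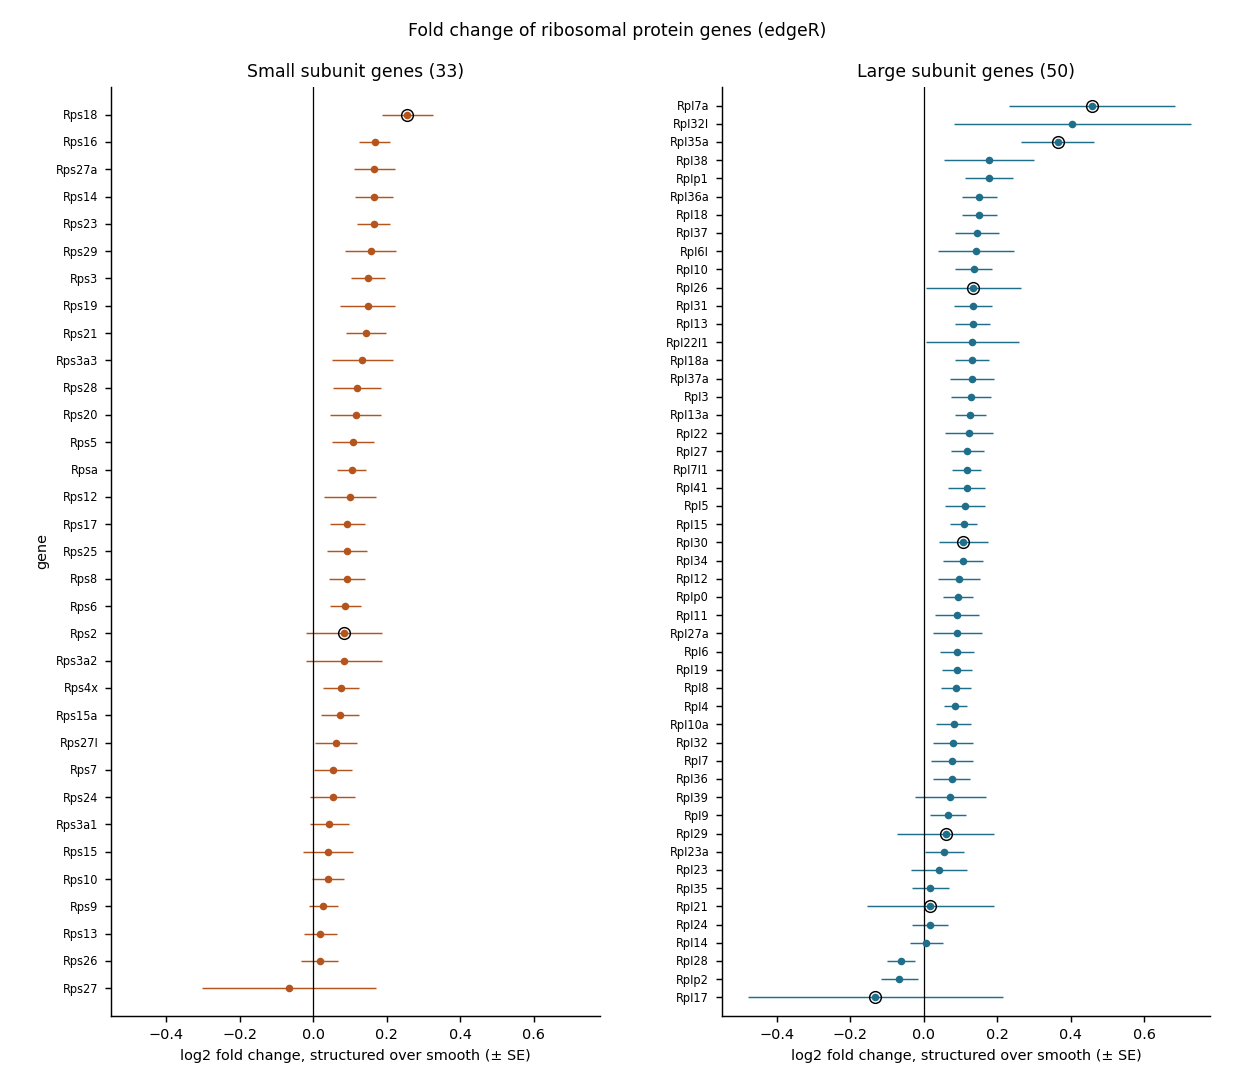
Log2 fold change, structured over smooth, of 83 tested genes with its standard error (horizontal bar, n = 4 libraries per surface), small subunit on the left and large subunit on the right. Black rings mark canonical genes whose near-identical copies hold at least 50% of the counts. Most points lie between 0 and 0.2, and Rpl3l, whose counts were near the floor, and 1 small subunit gene are not drawn.

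The small subunit genes and the large subunit genes gave nearly the same picture. The median log2 fold change was 0.09 over 34 small subunit genes, 32 of them above 0, and 0.11 over 51 large subunit genes, 47 of them above 0. Summed over the small subunit, the level was 19439, 20671, 19299 and 20233 CPM in structured 1 to 4, and 18240.3, 19169, 17720 and 19932 CPM in smooth 1 to 4. Summed over the large subunit it was 28441, 30518, 28268 and 29252 CPM in structured 1 to 4, and 26513, 28152, 25558 and 28558 CPM in smooth 1 to 4. Structured 2 was the highest library and smooth 3 the lowest for both subunits, and smooth 4 lay within the range of the structured libraries for both, so the surfaces overlapped. The sum over all members averaged 49030.2 ± 1666 CPM on structured PEEK and 45961 ± 2374 CPM on smooth PEEK (SD, n = 4 each), a ratio of 1.07.

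The ratio between the subunits differed little between libraries. The ratio of the large subunit sum to the small subunit sum was 1.46, 1.48, 1.46 and 1.45 in structured 1 to 4, against 1.45, 1.47, 1.44 and 1.43 in smooth 1 to 4. Its mean was 1.462 ± 0.0126 in structured libraries and 1.449 ± 0.0154 in smooth libraries (SD, n = 4 each), a difference of 0.0132, which lies between the 2 SDs, and the surfaces overlapped. From summed FPKM the ratio was 1.498 ± 0.0180 in structured libraries and 1.473 ± 0.0200 in smooth libraries, a difference of 0.0249, which is larger than either SD. The surfaces still overlapped, with 1.478 to 1.519 in structured libraries and 1.453 to 1.499 in smooth libraries. With near-identical copies added to their parent genes the ratio was 1.559 ± 0.00918 in structured libraries and 1.56 ± 0.0255 in smooth libraries, a difference of -0.000813. That sum holds Rps18-ps6, a copy of Rps18 listed at 0 in smooth 2 and smooth 3. Without Rps18-ps6 the ratio was 1.589 ± 0.00945 in structured libraries and 1.574 ± 0.0184 in smooth libraries, a difference of 0.0150. The surfaces overlapped with and without that copy. The members took 4.789% to 5.10% of all counts in structured libraries and 4.33% to 4.786% in smooth libraries, so by share of counts the surfaces were just apart, while by TMM-scaled sums they overlapped.

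**Figure D2:**
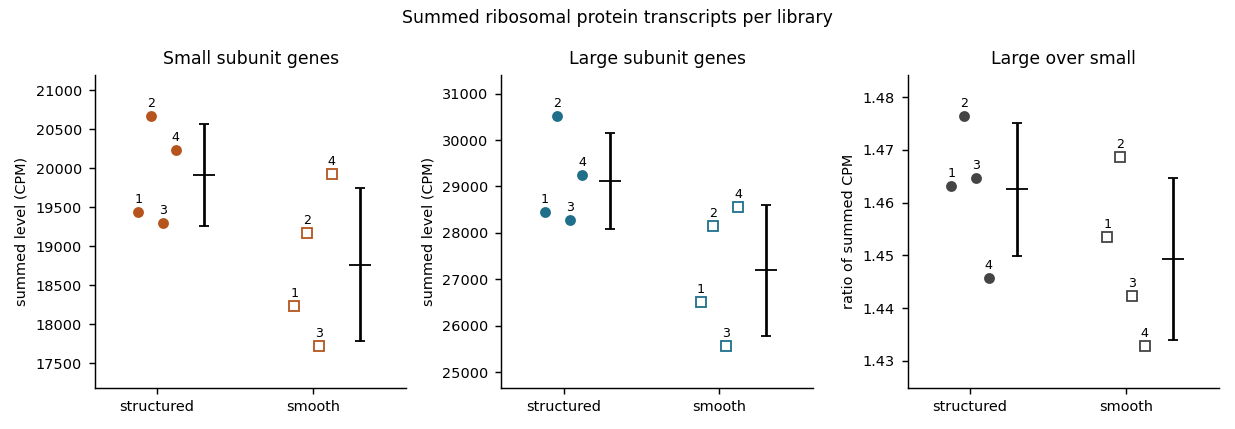
Summed CPM of the 35 small subunit genes (left) and the 51 large subunit genes (centre) and the ratio of the sums (right), by surface, with structured libraries as filled circles and smooth libraries as open squares. Numbers are library numbers, horizontal marks are means and bars are SD (n = 4). The axes do not start at 0; the ratio runs from 1.43 to 1.48 over all libraries and the surfaces overlap in every panel.

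The members differed between libraries of the same surface. Taken gene by gene as log2 of CPM over the smooth mean, the median member stood at 0.06, 0.17, 0.06 and 0.11 in structured 1 to 4, and at -0.02, 0.05, -0.08 and 0.07 in smooth 1 to 4. Structured 2 held the highest value of 52 of the 85 members and smooth 4 that of 12, while smooth 3 held the lowest value of 46 and smooth 1 that of 29. The median member thus differed between libraries of 1 surface by as much as between surfaces. Without structured 2 and smooth 3, an alternative chosen after their values were seen, the median log2 fold change of the members was 0.06, 67 of 85 were above 0, and 20 genes of the whole table were called. The same pair left 0 members called, with a smallest adjusted p of 0.136 (edgeR).

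**Figure D3:**
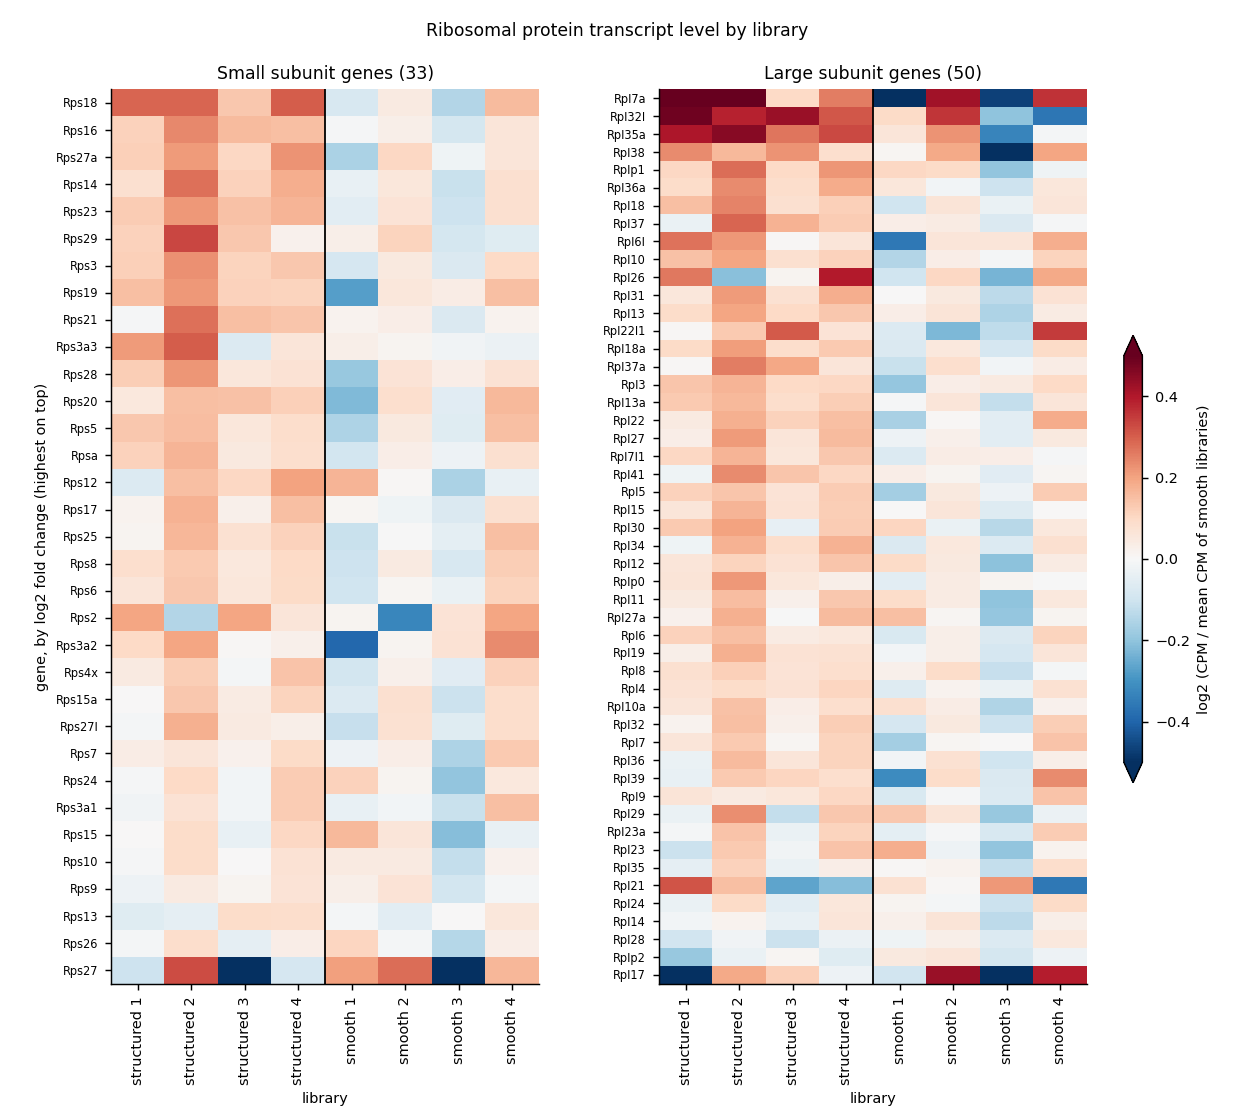
Level of 83 tested genes in each of the 8 libraries, as log2 of CPM over the mean CPM of the smooth libraries (colour, red above and blue below, ends at 0.5 and beyond), structured libraries to the left of the black line. Genes are ordered by log2 fold change within small subunit (left) and large subunit (right). Structured 2 is red in most genes and smooth 3 blue in most, and single genes such as Rpl17, Rpl7a and Rps27 swing far more than the rest.

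Within the small subunit the smallest adjusted p belonged to Rps16, a protein of the head near the decoding centre (ENSMUSG00000037563, chr7:28350652-28353155, as the table gives it). Rps16 had 335, 365, 345 and 342 CPM in structured 1 to 4, and 307, 315, 290.1 and 322 CPM in smooth 1 to 4. The surfaces did not overlap, and the log2 fold change was 0.17 ± 0.04 (SE; edgeR BH-adjusted p = 0.0520). Over all alternatives the adjusted p of Rps16 ran from 0.00161 with DESeq2 to 0.281 without structured 2 and smooth 3. Rps23, which lies at the decoding centre, had 493, 526, 500.04 and 508 CPM in structured 1 to 4, and 436, 473, 421 and 477 CPM in smooth 1 to 4. Its surfaces did not overlap either (0.17 ± 0.05, edgeR BH-adjusted p = 0.0695). Rps18, a protein of the head, had 57.8, 57.8, 51.9 and 58.3 CPM in structured 1 to 4, and 44.7, 48.8, 42.7 and 52.8 CPM in smooth 1 to 4. Only structured 3 fell inside the smooth range, with a log2 fold change of 0.26 ± 0.07 (edgeR BH-adjusted p = 0.0637), and 91.2% of the counts of Rps18 and its copies lay on the copies.

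Other small subunit genes of known roles had smaller or more scattered differences. Rps27a, made as a fusion with ubiquitin, was just apart between the surfaces, with 555.5 to 604 CPM in structured libraries and 464 to 555.2 in smooth libraries (0.17 ± 0.05, edgeR BH-adjusted p = 0.119). With its copies added the surfaces overlapped, with 604 to 676 CPM in structured libraries and 511 to 649 in smooth libraries (0.15 ± 0.06, edgeR BH-adjusted p = 0.216). Rps3, which lines the messenger RNA entry and also acts in DNA repair, was apart by its own entry, with 1059 to 1146 CPM in structured libraries and 925 to 1049 in smooth libraries (0.15 ± 0.05, edgeR BH-adjusted p = 0.101). Rps14, a platform protein whose loss in humans underlies the anaemia of the 5q deletion, was apart as well (0.17 ± 0.05, edgeR BH-adjusted p = 0.107). For Rps19, the gene most often mutated in Diamond-Blackfan anaemia in humans, the values were 291, 305, 284 and 283 CPM in structured 1 to 4, and 217, 273, 269.5 and 291 CPM in smooth 1 to 4. Smooth 1 alone gave the low end of that range, and the log2 fold change was 0.15 ± 0.07. Rps6, the substrate of S6 kinase, had a log2 fold change of 0.09 ± 0.04, Rpsa, also known as a laminin receptor, 0.10 ± 0.04, and Rps4x, encoded on the X chromosome, 0.08 ± 0.05. Rps29, a small zinc-binding protein of the head, had 0.16 ± 0.07. Close to 0 were Rps26, which contacts the messenger RNA at the exit channel (0.02 ± 0.05), Rps13 (0.02 ± 0.05) and Rps15 (0.04 ± 0.07). None of these passed the test.

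In the large subunit, Rpl35a, a gene of Diamond-Blackfan anaemia in humans, had 26.2, 27.1, 23.8 and 24.9 CPM in structured 1 to 4, and 20.7, 23.2, 15.8 and 19.7 CPM in smooth 1 to 4. The surfaces did not overlap, and the log2 fold change was 0.36 ± 0.10 (edgeR BH-adjusted p = 0.0690). With its 16 copies added, which held 89.0% of the counts, the fold change of Rpl35a was 0.12 (edgeR BH-adjusted p = 0.294) and the surfaces overlapped, with 199 to 228 CPM in structured libraries and 178 to 211 in smooth libraries. Rpl13a, which also has a part in the silencing of inflammatory mRNAs in interferon-treated monocytes, was apart between the surfaces with 697 to 735 CPM in structured libraries and 604 to 685 in smooth libraries (0.13 ± 0.04, edgeR BH-adjusted p = 0.126). Rpl3, which lies at the peptidyl transferase centre, was apart too, with 925 to 969 CPM in structured libraries and 753 to 923 in smooth libraries (0.13 ± 0.05, edgeR BH-adjusted p = 0.231). Rpl15 was apart with 811.4 to 875 CPM in structured libraries and 743 to 811.0 in smooth libraries (0.11 ± 0.04, edgeR BH-adjusted p = 0.136).

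The large subunit genes tied to p53 lay near the median of the members. Rpl5 and Rpl11, which bind MDM2 together with the 5S ribosomal RNA when ribosome assembly is disturbed, had log2 fold changes of 0.11 ± 0.05 and 0.09 ± 0.06, and for both the surfaces overlapped. Rpl10, which joins the subunit last, was at 0.14 ± 0.05 with 1022 to 1107 CPM in structured libraries and 872 to 1043 in smooth libraries, overlapping only through smooth 4. Rpl4 was at 0.09 ± 0.03, Rpl7 at 0.08 ± 0.06, Rpl8 at 0.09 ± 0.04, Rpl22 at 0.12 ± 0.06 and Rpl41, the shortest ribosomal protein, at 0.12 ± 0.05. Rpl38, which in mice is needed for the translation of a subset of Hox mRNAs, had 60.3, 57.3, 59.8 and 54.2 CPM in structured 1 to 4, and 51.6, 58.3, 36.1 and 58.7 CPM in smooth 1 to 4. Smooth 3 lay far below the other 7 libraries in that gene, and the log2 fold change was 0.18 ± 0.12. With its copies added, Rpl38 had 61.4 CPM in smooth 3, inside the range of 56.5 to 64.9 of the smooth libraries. Rpl39, at the end of the exit tunnel, was at 0.07 ± 0.10, Rpl24 at 0.02 ± 0.05, Rpl35 at 0.02 ± 0.05 and Rpl14 at 0.01 ± 0.04. Rpl28 was one of the few members below 0, with 656, 694, 651 and 687 CPM in structured 1 to 4, against 691, 717, 670.1 and 729 CPM in smooth 1 to 4 (-0.06 ± 0.04, edgeR BH-adjusted p = 0.428).

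The 3 proteins of the lateral stalk, which recruits the elongation factors, did not share the sign of their fold changes. Rplp1 had 768, 866, 765 and 831 CPM in structured 1 to 4, and 768, 763, 622 and 703 CPM in smooth 1 to 4 (0.18 ± 0.07, edgeR BH-adjusted p = 0.165). Rplp2, its partner in the stalk dimer, had 266, 297, 306 and 291 CPM in structured 1 to 4, and 314, 317, 286 and 298 CPM in smooth 1 to 4 (-0.07 ± 0.05, edgeR BH-adjusted p = 0.542). Rplp0, the base on which the dimers sit, had 1641, 1821, 1632 and 1599 CPM in structured 1 to 4, and 1510.1, 1614, 1585 and 1564 CPM in smooth 1 to 4 (0.09 ± 0.04, edgeR BH-adjusted p = 0.255). The surfaces overlapped for each of the 3 genes, and a difference between their fold changes was not tested.

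The paralogs and the annotated pseudogenes covered a wide range of levels. Rpl7l1, a nucleolar relative of Rpl7, was apart between the surfaces with 197 to 214 CPM in structured libraries and 181 to 195 in smooth libraries (0.12 ± 0.04, edgeR BH-adjusted p = 0.128). Rps27l, a p53 target, was at 0.06 ± 0.06 and Rpl22l1, the paralog of Rpl22, at 0.13 ± 0.13 with 11.9 to 14.6 CPM in structured libraries and 10.1 to 15.0 in smooth libraries. Rpl3l, the muscle paralog of Rpl3, had 0, 0.310, 0.185 and 0 CPM in structured 1 to 4 and 0.195, 0.198, 0.248 and 0.083 CPM in smooth 1 to 4. These values are near the floor of 3 fragments, which is 0.166 to 0.186 CPM in a library, so no fold is given. Among the annotated pseudogenes, Rps3a2 was listed at a mean of 225 FPKM and Rpl32l at 1.25 FPKM, and reads of these entries cannot be told apart from those of Rps3a1, Rpl6 and Rpl32 where their sequences are the same. Rps4l stood at no more than 0.185 CPM in any library.

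Several members had most of their counts on copies. A search of the transcripts of all other entries found 818 near-identical copies of 77 members (at least 90% identity over at least 50% of the copy), up to 70 for 1 gene, and 805 of them are annotated as pseudogenes. The copies outside the 86 genes took 1.19% to 1.24% of all counts in structured libraries and 1.07% to 1.19% in smooth libraries. For 9 canonical members the copies held at least 50% of the counts of gene and copies together: Rpl7a, Rpl17, Rpl30, Rpl35a, Rps18, Rps2, Rpl26, Rpl29 and Rpl21. The median coefficient of variation within a surface was 12.8% over these 9 genes by their own entries, against 6.10% over all 86 members. With copies added it was 6.39% over the 9 genes, against 5.72% over the 81 members tested in that form. The 9 genes are part of both larger sets.

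Stretches of 60 bases from the coding frame are shown for 3 genes and a copy of each, because they show how little separates the entries. They are taken from GENCODE M21 transcripts, 5′ to 3′, and capitals mark the base that differs within the stretch. Counted from base 1 of the parent's coding frame, the stretches begin at base 156 in Rps18, at base 156 in Rpl7a and at base 42 in Rplp0.
Rps18: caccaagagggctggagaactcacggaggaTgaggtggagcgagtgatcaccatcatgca
Rps18-ps6: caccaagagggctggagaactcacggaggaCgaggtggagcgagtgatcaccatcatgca
Rpl7a: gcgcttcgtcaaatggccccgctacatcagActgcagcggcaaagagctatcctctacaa
Rpl7a-ps11: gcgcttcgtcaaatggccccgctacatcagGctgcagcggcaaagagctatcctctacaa
Rplp0: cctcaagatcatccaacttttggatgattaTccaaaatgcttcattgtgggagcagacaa
Gm8730: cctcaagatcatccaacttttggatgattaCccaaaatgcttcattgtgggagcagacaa
Over the whole frame Rps18 (chr17:33951999-33955663) and Rps18-ps6 (chr13:97760072-97760632) differed at 4 of 459 aligned bases. Rpl7a (chr2:26910764-26913318) and Rpl7a-ps11 (chrX:166854211-166855011) differed at 2 of 801, and Rplp0 (chr5:115559467-115563727) and Gm8730 (chr8:102864845-102865798) at 12 of 954.

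For some members, among them Rpl7a, counts on the gene and on its copies varied in opposite directions between libraries of the same surface. This did not hold for every member. Rplp0 and its copy Gm8730 were both highest in structured 2 among the structured libraries and in smooth 2 among the smooth libraries. The own entry of Rpl7a, a large subunit protein, had 753, 830.0, 525 and 585 CPM in structured 1 to 4, and 321, 656, 355 and 629 CPM in smooth 1 to 4, a log2 fold change of 0.46 ± 0.23. Its 70 copies together had 579, 582, 755 and 754 CPM in structured 1 to 4, and 961, 669.9, 808 and 644 CPM in smooth 1 to 4, so libraries low in the gene were high in the copies. Gene and copies together had 1332, 1412, 1279.5 and 1339 CPM in structured 1 to 4, and 1283, 1326, 1163 and 1273 CPM in smooth 1 to 4, a log2 fold change of 0.09 ± 0.05 (edgeR BH-adjusted p = 0.320). The sum moved far less between libraries than either part.

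Rpl17 and Rps27 showed the same pattern. The own entry of Rpl17, at the exit tunnel, had 96.6, 248, 237 and 214 CPM in structured 1 to 4, and 204, 294, 87.6 and 286 CPM in smooth 1 to 4, a log2 fold change of -0.13 ± 0.35. With its 34 copies Rpl17 had 588, 589, 561 and 603 CPM in structured 1 to 4, and 565, 589.7, 522 and 619 CPM in smooth 1 to 4, and the fold change was 0.03 ± 0.05. Rps27 had 92.4, 124, 69.1 and 93.6 CPM in structured 1 to 4, and 114, 120.4, 50.7 and 111 CPM in smooth 1 to 4, a log2 fold change of -0.07 ± 0.24. Its copy Rps27rt, identical over the aligned part, had 48.8, 36.9, 77.5 and 60.9 CPM in structured 1 to 4, and 16.1, 23.3, 81.4 and 37.5 CPM in smooth 1 to 4. The libraries lowest in Rps27, structured 3 and smooth 3, were the highest in Rps27rt. Rps27 and its copies together had a log2 fold change of 0.12 ± 0.05 (edgeR BH-adjusted p = 0.255).

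Rps18 differed from these. Its copy Rps18-ps6 had 413, 486, 459 and 448 CPM in structured 1 to 4, and 419.9, 0, 0 and 408 CPM in smooth 1 to 4. In smooth 2 and smooth 3 it was listed at 0 counts, where the other 6 libraries had 27962 to 32955 count units. Those counts did not appear on Rps18 or its other copies: gene and copies together had 694, 769, 722 and 735 CPM in structured 1 to 4, and 655, 251, 224 and 674 CPM in smooth 1 to 4. The sum for Rps18 had a log2 fold change of 0.69 ± 0.31 (edgeR BH-adjusted p = 0.241), set by these 2 smooth libraries, and whether the zeros come from counting was not tested.

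**Figure D4:**
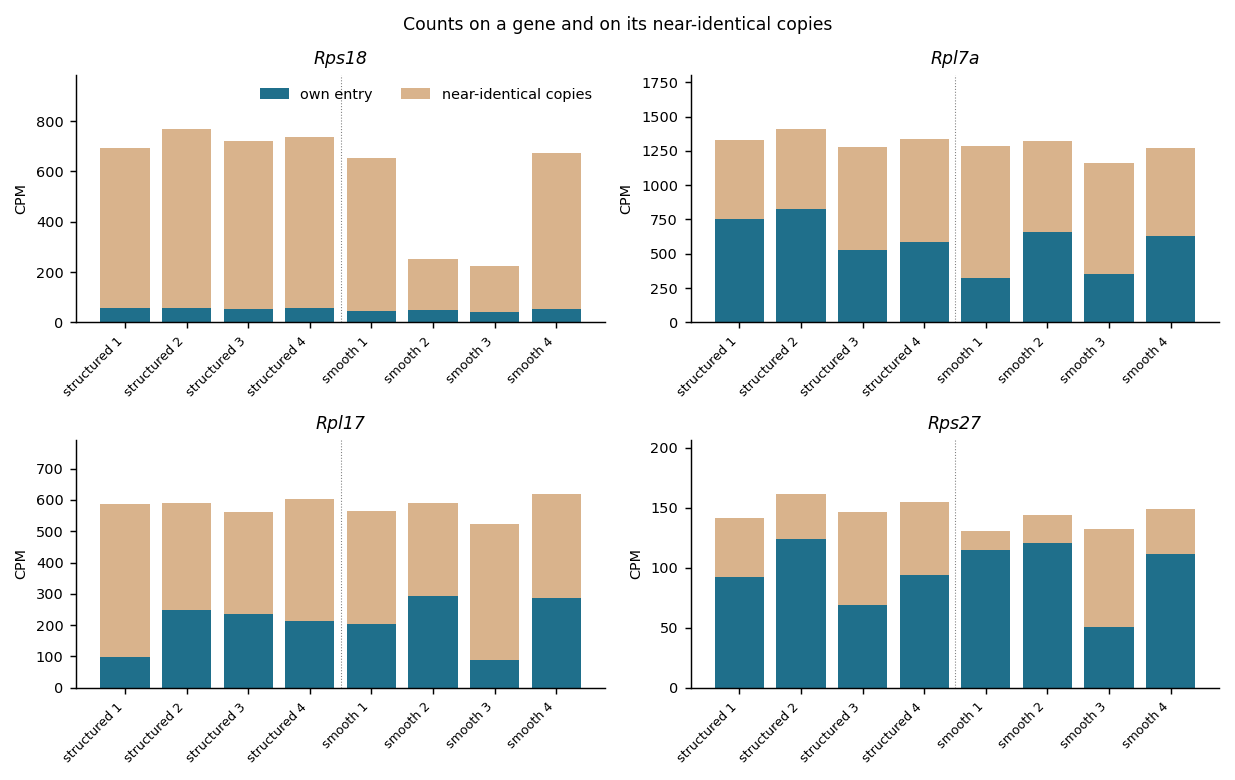
CPM on the gene's own entry (blue) and on its near-identical copies (tan, stacked on top) in each library for Rps18, Rpl7a, Rpl17 and Rps27, structured libraries to the left of the dotted line. In Rpl7a, Rpl17 and Rps27 the stacked height is nearly even while the blue part swings; in Rps18 the stack is much shorter in smooth 2 and smooth 3.

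With copies added to parents over the whole table, the fold changes were again mostly positive. Of 81 ribosomal protein genes tested in that form, 76 were above 0 with a median log2 fold change of 0.10, and 0 were called, where 4.01% of all genes were. Among 390 tested copies outside the members, 259 (66.4%) were above 0, with a median of 0.07, where 51.2% of all tested genes were above 0. Of the 390 copies 1 was called higher and 0 lower, where 1.01% of all tested genes were called higher and 2.75% lower. The copy Gm8730 of Rplp0 rose, with 1196, 1268, 1204 and 1224 CPM in structured 1 to 4, against 1073, 1166, 1019.4 and 1089 CPM in smooth 1 to 4 (0.17 ± 0.04, edgeR BH-adjusted p = 0.0460). It was chosen as the only one of the copies that was called, and its call held under 10 of 22 alternatives. Rplp0 with its copies had a log2 fold change of 0.13 ± 0.04 (edgeR BH-adjusted p = 0.0883), and the surfaces did not overlap, with 3050.4 to 3341 CPM in structured libraries and 2801 to 3009 in smooth libraries.

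The members were shorter than most genes. Their median transcript length was 910.0 bases and their median GC content 51.7%, beside 2646 bases and 49.8% over all tested genes. With the trend of each library's values on length and GC removed, the median log2 fold change of the members was 0.07, and 70 of 85 were above 0. The length in that trend was the one implied by a gene's deposited counts and FPKM, not the transcript length above. The median over the small subunit genes was then 0.06 and over the large subunit genes 0.08. In the same setting 0 members were called, and calls over all genes numbered 392 (186 higher and 206 lower). The fold change of Rps16 was then 0.11, that of Rps23 0.11, that of Rps14 0.16 and that of Rps18 0.25.

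**Figure D5:**
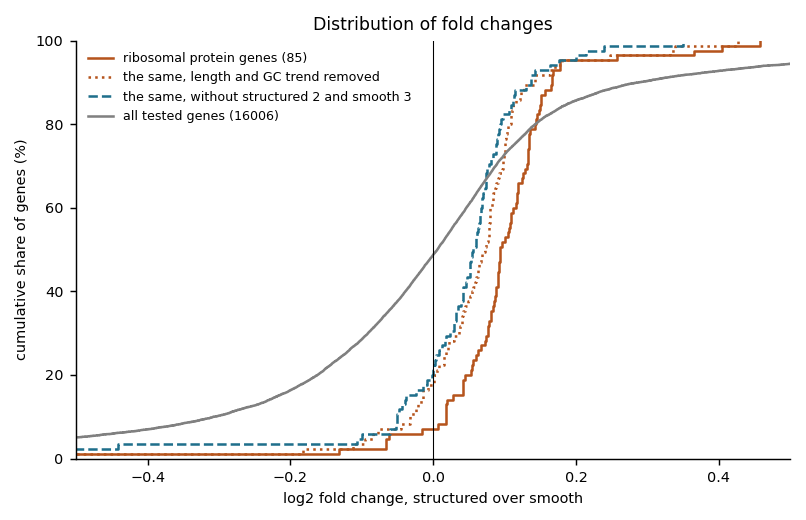
Cumulative share of genes (vertical axis, percent) at or below a log2 fold change, structured over smooth (horizontal axis), for 85 ribosomal protein genes and for all tested genes. The curve of the ribosomal protein genes lies to the right of 0 for 79 of 85 genes; it shifts to the left, to a median of 0.07, with the length and GC trend removed (dotted) and to 0.06 without structured 2 and smooth 3 (dashed).

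Ribosomal proteins outside the symbol rule had fold changes of the same size. Of 4 tested, 4 had positive fold changes and none passed, where 51.2% of all tested genes were positive and 3.75% passed. Fau, which fuses Rps30 to a ubiquitin-like protein, had 329, 359, 342 and 345 CPM in structured 1 to 4, and 327, 330.2, 296 and 329 CPM in smooth 1 to 4 (0.10 ± 0.04, edgeR BH-adjusted p = 0.241). Rack1, a scaffold on the small subunit, was at 0.10 ± 0.03 (edgeR BH-adjusted p = 0.116), and 1 of 23 alternatives called it.

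Among 12 tested elongation and termination factors, 0 were called, 8 were above 0 and the median log2 fold change was 0.04. Over all tested genes 3.75% were called and 51.2% were above 0. Eef1a1, which brings aminoacyl-tRNA to the ribosome, averaged 12667 ± 164 CPM in structured libraries and 12411 ± 430 CPM in smooth libraries (SD, n = 4 each; 0.03 ± 0.03), and its sign turned with the length and GC trend removed. Eef2, the translocase, was at -0.06 ± 0.03 (edgeR BH-adjusted p = 0.255). Among 17 tested chaperones and assembly factors of ribosomal proteins, 0 were called, 15 were above 0 and the median was 0.08. Eif6, which keeps free large subunits apart from small ones, was at 0.04 ± 0.06 and Pno1, a factor of small subunit assembly, at 0.09 ± 0.04.

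Of 20 other mRNAs with a TOP start, some of them also in the lists above, 14 were above 0, with a median of 0.05. Over all tested genes 51.2% were above 0 and 3.75% were called, and in this list 1 was called. This was Pabpc1, the cytoplasmic poly(A)-binding protein, which fell, with 2302, 2147, 2348 and 2215 CPM in structured 1 to 4, against 2450.4, 2528, 2696 and 2700.5 CPM in smooth 1 to 4 (-0.20 ± 0.04, edgeR BH-adjusted p = 0.0233). The surfaces did not overlap, and 14 of 23 alternatives kept the call. Its fold change was thus of the opposite sign to that of most ribosomal protein genes, which share the TOP start.

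Of 17 tested regulators of ribosomal protein synthesis, 2 fell, 0 rose and 5 were above 0, with a median of -0.04. Over all tested genes 2.75% fell, 1.01% rose and 51.2% were above 0. Larp1, which binds the TOP start and holds back its translation, had 421, 411, 440.4 and 401 CPM in structured 1 to 4, and 479, 458, 482 and 454 CPM in smooth 1 to 4. The surfaces did not overlap (-0.16 ± 0.04, edgeR BH-adjusted p = 0.0435). Tsc2, which restrains mTORC1, had 67.7, 63.6, 69.4 and 63.97 CPM in structured 1 to 4, and 76.2, 75.3, 80.3 and 78.4 CPM in smooth 1 to 4. The surfaces did not overlap here either (-0.23 ± 0.04, edgeR BH-adjusted p = 0.0219). The call of Larp1 held under 9 of 23 alternatives and that of Tsc2 under 14 of 23. With the length and GC trend removed neither was called: Larp1 was at -0.09 (adjusted p = 0.128) and Tsc2 at -0.12 (adjusted p = 0.118). Mdm2, the ligase that Rpl5 and Rpl11 bind, was at -0.10 ± 0.04 (edgeR BH-adjusted p = 0.230). Mtor and Rptor, on the same list, were also below 0 and not called. Their log2 fold changes were -0.14 ± 0.04 (edgeR BH-adjusted p = 0.0912) and -0.13 ± 0.04 (edgeR BH-adjusted p = 0.0798).

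Transcripts of other cell types varied between the libraries as well. Summed over 12 neutrophil genes the level was 57.9, 90.1, 87.3 and 88.6 CPM in structured 1 to 4, and 55.1 to 65.0 CPM in smooth libraries, and 4 of 6 tested genes rose. Mmp9 held 48.95 to 54.1 CPM of these sums in structured libraries and 53.3 to 63.99 in smooth libraries. Its fold change was below 0 (-0.21 ± 0.06, edgeR BH-adjusted p = 0.0782). In each of the 4 that rose, structured 1 was the lowest structured library. S100a9, for example, had 1.99, 11.72, 11.77 and 14.26 CPM in structured 1 to 4, and 0 to 0.0601 in smooth libraries. Summed over 13 hepatocyte genes the level was 128, 137, 239 and 428 CPM in structured 1 to 4, and 292, 90.9, 80.0 and 58.6 CPM in smooth 1 to 4. Summed over 11 skeletal muscle genes the level was 15.2 to 21.5 CPM in structured libraries and 18.9 to 62.2 CPM in smooth libraries. Of these sums Tnni2 held 12.9 to 14.6 CPM in structured libraries and 9.72 to 15.7 in smooth libraries. Of 11 tested genes 3 fell, where 2.75% of all tested genes did. Over 6 fibroblast genes the sum was 0.682 to 3.66 CPM in structured libraries and 1.77 to 2.84 CPM in smooth libraries. No marker gene of these lists was at 0 in all 8 libraries. Structured 4 had the highest hepatocyte sum, and smooth 1, which held the lowest value of 29 members, had the highest muscle sum and the highest hepatocyte sum of the smooth libraries. The part of these transcripts in the ribosomal protein values was not tested.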

How the data were processed

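For each of 26848 genes, the authors deposited an FPKM and an estimated count in every library. Per the submitters' processing notes, reads were trimmed with cutadapt 1.9 and aligned with HISAT2 2.2.1. The counter, the annotation, the build and any use of molecular identifiers were not given in the sources used here. Deposited expected counts are whole numbers. Multiples of 4 are in excess among low counts (the value 4 occurred 8018 times, 3 occurred 3344 times and 5 occurred 2180 times), so 1 fragment may count as 4 units, and the floor of 3 fragments was set at 12 units. The deposited FPKM values were scaled by the authors for gene length and depth, per the file headers. Of the 86 members, 74 had the same coordinates in GENCODE M21, and positions are those of the table, for which no build is stated; promoter sequences are from RefSeq (GRCm38.p6).

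The members, gene lists and naming rule were chosen with earlier results of these data known. Genes were tested with edgeR 4.0.16 under R 4.3.3 (TMM scaling, filterByExpr at a minimum count of 10, quasi-likelihood test, two-sided, for structured over smooth, Benjamini-Hochberg adjustment over all tested genes at 0.05). The step was tested on simulated data. CPM is the count scaled to the TMM-adjusted library size. Named members were the 10 highest and 10 lowest fold changes with a mean FPKM of at least 5, the 5 highest and 5 lowest levels, the 5 highest and 5 lowest coefficients of variation, and 30 genes by name, 48 in all; genes named only among copies or beside the 18 called by DESeq2 are outside the rule. From the pathway lists every called gene and up to 3 of the most abundant were named, and Mtor and Rptor were named outside this rule. Copies were found with blastn 2.17.0 (plus strand, at least 150 bases). Alternatives were DESeq2 1.42.0, limma 3.58.1, other scalings and filters, counts divided by 4, a replicate block, a loess fit on length and GC with span 0.5, each library left out, and 3 alternatives chosen after seeing the data (structured 2 and smooth 3 left out, copies summed, and copies summed without Rps18-ps6 for the subunit ratio). The loess fit took length from the ratio of deposited counts to FPKM and GC from the transcript. Values of 1 member and 1 gene of a pathway list are not reported here. Plots used matplotlib 3.10.9 (Python 3.11.15).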

Additional observations from a re-analysis of the deposited data

Results flagged for a closer look

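In Rps18 the value of structured 3 stood apart from its group at 51.9 CPM, where the other structured libraries had 57.8 to 58.3 CPM. In Rps27 the value of smooth 3 stood apart at 50.7 CPM, where the other smooth libraries had 111 to 120.4 CPM. The gap to the nearest library was 0.916 of the group's range in Rps18 and 0.87 in Rps27, above the critical value of Dixon's test for 4 libraries. Of 102 groups checked, 2 gave such a value, and chance gives about 5%. Rps27 and its copies together had 132 CPM in smooth 3, inside the range of 131 to 149 CPM of the smooth libraries.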

How the results depend on the processing

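Of the 85 members, edgeR called 0. DESeq2 called 18 (1433 genes in all, against 601 by edgeR), the replicate block 4 (Rpl35a, Rps14, Rps18 and Rps23), counts divided by 4 called 3, a mean FPKM of at least 1 called 2, and library totals alone and voom called 1 each, all higher. As shares of the members these were 21.2%, 4.71%, 3.61%, 2.38%, 1.18% and 1.18%, against 3.45%, 0.781%, 1.66%, 2.00%, 0.968% and 0.943% of all tested genes called higher in the same settings. Leaving out each library in turn gave 0 to 1 member (Rps18, without smooth 4 or structured 3) and 88 to 597 genes in all. Without a filter 189 genes were called, with limma on log2 FPKM 191, 242 and 187 (pseudocounts 0.5, 0.1 and 1), with the length and GC trend removed 392, and without structured 2 and smooth 3 together 20. Lower calls were 73.2% of all, 61.4% with DESeq2 and 52.5% with the trend removed. Same-numbered libraries had correlations of deviations of -0.114, 0.216, 0.092 and -0.135, where all pairs of libraries ran from -0.244 to 0.296. Pairing by number was thus not evident, but these values cannot settle whether samples were paired, and the labels do not say. The block called 499 genes in all. The median of the members was positive in every setting, from 0.06 (both libraries left out) to 0.13 (without smooth 4).

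For 47 named members under 23 settings, 1013 of 1077 values kept direction and side of the threshold, 25 passed it and 39 in 12 members had the opposite sign; the cause was not tested. With the trend removed these were Rpl14 (-0.033), Rpl24 (-0.045), Rpl35 (-0.024), Rps13 (-0.015), Rps15 (-0.017), Rps26 (-0.033), Rps3a1 (-0.021) and, outside the members, Eef1a1 (-0.0068). Without structured 2 and smooth 3 they were Rpl14 (-0.038), Rpl24 (-0.044), Rpl29 (-0.060), Rpl35 (-0.053), Rps15 (-0.040), Rps26 (-0.051), Rps3a1 (-0.0011) and, outside the members, Eif6 (-0.020). With copies summed they were Rpl14 (-0.013), Rpl17 (0.028) and Rps27 (0.12). With each library left out in turn, values ran from -0.034 to 0.032 in Rpl14, -0.39 to 0.095 in Rpl17, -0.096 to 0.10 in Rpl21, -0.017 to 0.051 in Rpl24, -0.0028 to 0.12 in Rpl29, -0.019 to 0.048 in Rpl35, -0.019 to 0.16 in Rpl39, -0.0051 to 0.045 in Rps13, -0.023 to 0.10 in Rps15, -0.026 to 0.055 in Rps26, -0.28 to 0.059 in Rps27 and -0.014 to 0.067 in Eif6.

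The limits are these. With 4 libraries per surface and fold changes of about 0.09, calls of single members turn on the test. Reads shared with copies leave the level of the 9 members with most counts on copies undetermined, and counts of Rps18-ps6 were listed at 0 in 2 libraries. The counter is not given in the sources used here, so how it assigns shared reads was not tested.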

Other observations

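The 86 genes were spread over the genome, with 14 on chromosome 7 and 8 on chromosome 17. The 4 on the X chromosome had positive log2 fold changes with a median of 0.11. Over all tested members the median was 0.09 and 92.9% were positive, against 51.2% of all tested genes. Of the 4, Rpl36a was apart between the surfaces, with 199 to 220.4 CPM in structured libraries and 174 to 195 CPM in smooth libraries. Of all tested members 15.3% were apart in this direction, against 5.19% of all tested genes. The median within-surface coefficient of variation of the members was 6.10%, beside 9.27% over all tested genes and 5.29% over 7062 tested genes at 5 FPKM or more on average. Among the steadiest members were Rpl4, Rpl7l1, Rpl28 and Rpl15, at 3.03% to 3.53%.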
